A study of Mus musculus with 12 samples.

Results

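The miR-15/16 family was followed across 5 mouse cell types. Its members were taken as the rows named as the 5p arm of miR-15a, miR-15b, miR-16, miR-195, miR-322, miR-497 or miR-503, and 7 of the 1042 miRNAs in the table met that rule. Small RNA libraries were sequenced from mouse embryonic fibroblasts (MEFs, 3 libraries), the embryonic stem cell line E14 (ESCs, 3 libraries), induced pluripotent stem cells (iPSCs, 2 libraries), ESCs made by nuclear transfer (NT-ESCs, 2 libraries) and cells made by nuclear transfer from iPSCs (NT-iPSCs, 2 libraries). The MEFs and the reprogrammed lines were C57B6/129SvJae F1 in background, whereas E14 was 129/ola. The iPSCs carry a lentiviral transgene, switched on by doxycycline, for c-Myc, Klf4, Oct4 and Sox2. Nuclear transfer used MEFs as donors for the NT-ESCs and iPSCs, which carry the transgene, as donors for the NT-iPSCs. All these lines go back to the same MEF line. The 4 pluripotent types were grown on irradiated MEF feeder cells. The libraries of a cell type were batches of RNA from 1 line, so p-values measure only the spread between batches, and cell type, line and, for ESCs, strain cannot be told apart.

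Members of this family share all or nearly all of the sequence that pairs with target mRNAs, the seed at bases 2 to 8 of the mature miRNA. The family is best known as a brake on the cell cycle, acting on D-type and E-type cyclins and their kinases, and miR-15a and miR-16 also repress the survival factor Bcl2. Pluripotent stem cells pass quickly through G1, and their most characteristic miRNAs, those of the miR-290 and miR-302 clusters, promote that transition.

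The mature sequences of the members are shown because the seed defines the family, with the seed in capitals. They were taken from RefSeq (GRCm38.p6), where all 7 matched; RefSeq now names the miR-195 and miR-497 entries miR-195a-5p and miR-497a-5p. The prefix mmu-, for mouse, is left out elsewhere.
mmu-miR-15a-5p: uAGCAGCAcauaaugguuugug
mmu-miR-15b-5p: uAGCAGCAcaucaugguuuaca
mmu-miR-16-5p: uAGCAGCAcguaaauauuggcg
mmu-miR-195-5p: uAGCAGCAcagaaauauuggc
mmu-miR-497-5p: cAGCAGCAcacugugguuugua
mmu-miR-322-5p: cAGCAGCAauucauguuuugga
mmu-miR-503-5p: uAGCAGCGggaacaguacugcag

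The 6 other members had 1 seed in common, and miR-503-5p differed from it by the substitution A8G, counted from the 5′ end. Outside the seed the members diverged. miR-16-5p and miR-195-5p were identical at 19 of 21 positions, and miR-15a-5p and miR-15b-5p at 18 of 22, so that reads with sequencing errors could be assigned to the wrong member of either pair. miR-503-5p matched miR-497-5p at 10 of 22 positions, the fewest of any pair.

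The hairpins lie in 4 pairs. On chromosome 14, minus strand, Mir15a (chr14:61632027-61632110) lies in an intron of the non-coding gene Dleu2 and Mir16-1 (chr14:61631880-61631972) overlaps an annotated Dleu2 exon, with 54 bases between them. On chromosome 3, plus strand, Mir15b (chr3:69009772-69009835) and Mir16-2 (chr3:69009902-69009996) lie 66 bases apart in introns of Smc4, which codes for a condensin subunit. On chromosome 11, Mir497 (chr11:70234717-70234800) and Mir195a (chr11:70235042-70235135) lie 241 bases apart on the plus strand, and Mir497b is annotated on the opposite strand of Mir497. On the X chromosome, minus strand, Mir322 (chrX:53054255-53054349) and Mir503 (chrX:53053984-53054054) lie 200 bases apart and overlap no other annotated gene. Positions and overlaps are those of GENCODE M21 on GRCm38. The mature miR-16-5p is the same from both of its hairpins, so its reads cannot be assigned to either locus.

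Each deposited value was a variance stabilized value (VST), which at these read numbers moves like the log2 of the normalized reads, so that a difference of 1 is a doubling. The reads behind the values were recovered and came to between 4863365 and 8608689 miRNA reads per library, at which 3 reads stand for 0.348 to 0.617 CPM (reads scaled to the library's total). Every member was read in every library, with between 7 and 13790 reads. All 10 of the fibroblast and mesenchymal marker miRNAs in the table, such as miR-143 and miR-199a, were above 3 reads in every library, and their summed share was 6.56 to 9.96% of the miRNA reads in MEFs, 4.03 to 4.42% in ESCs, 2.13 to 2.33% in iPSCs, 6.05 to 6.14% in NT-ESCs and 6.18 to 7.14% in NT-iPSCs. These miRNAs are therefore present in the pluripotent types, which were grown on MEF feeders, and their part in the results was not tested; as in all such bulk samples, fewer cells of a type and less RNA per cell cannot be told apart. The 9 pluripotent marker miRNAs took 7.84 to 18.6% of the reads in pluripotent libraries and at most 0.00101% in MEFs, where miR-290-3p was at 0.

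The 6 libraries of reprogrammed cells stood apart from those of both MEFs and ESCs far beyond this family. A hairpin can give reads from both of its arms, 5p and 3p, and the balance of the arms was set out for 264 hairpins with both arms tested (with 0.5 read added to each arm). Between MEFs and ESCs, a somatic and a pluripotent cell type, the log2 ratio of 5p to 3p reads correlated at r = 0.964 over the 264 hairpins, whereas between reprogrammed cells and ESCs r was 0.765, and between reprogrammed cells and MEFs 0.764. The reprogrammed types correlated with each other at 0.991 to 0.993. These correlations are descriptions over hairpins that share libraries. Every reprogrammed line is on the same side of this split, so the reprogrammed state and anything else that these 6 libraries share cannot be told apart in the results below. In the paper's sequencing statistics these libraries also had more total reads and a larger percentage of 5′ adaptor contaminants than any MEF or ESC library. The part of this in the split was not tested.

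**Figure D1:**
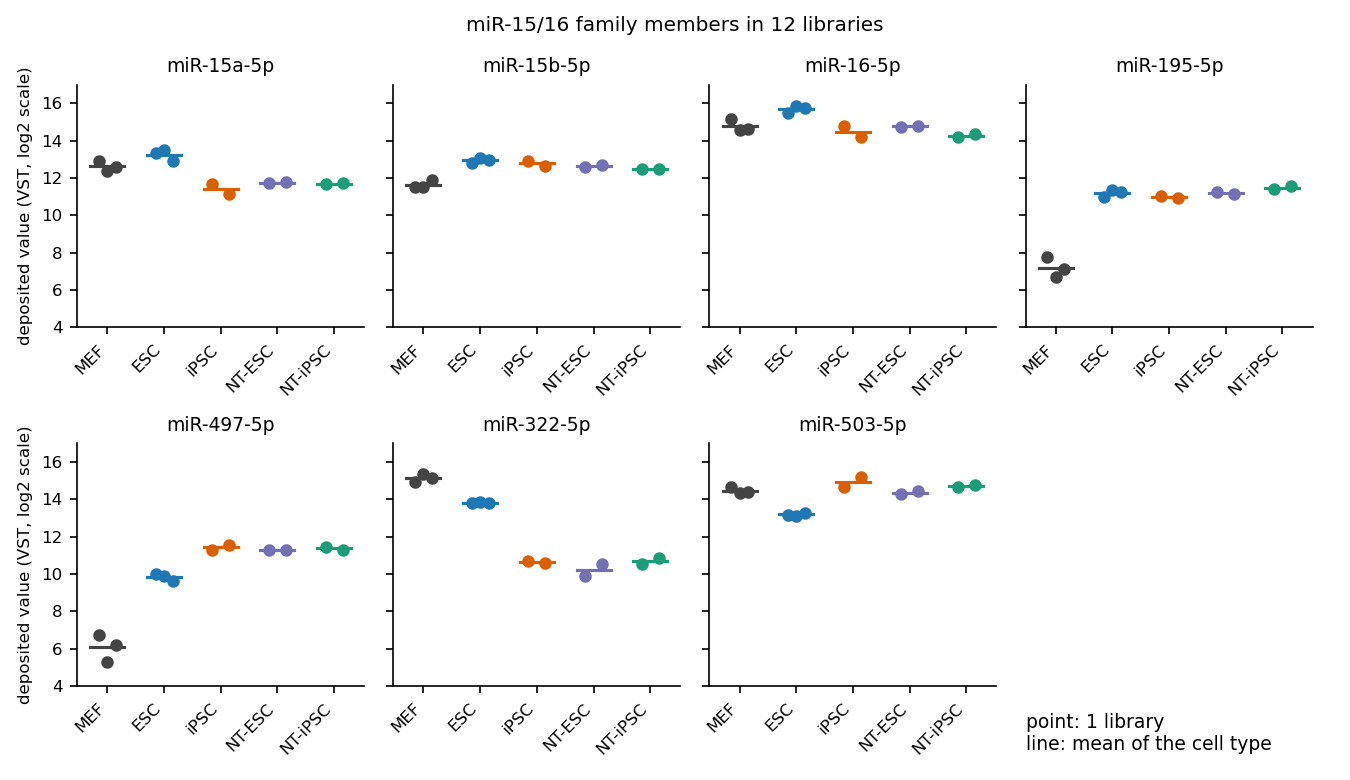
Deposited VST (log2 scale) of the 7 members in the 12 libraries, 1 point per library and a line at the mean of each cell type. miR-195-5p and miR-497-5p are lowest in the 3 MEF libraries, and miR-322-5p is lowest in the 6 reprogrammed libraries.

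miR-15a-5p and miR-15b-5p, each the first hairpin of its pair, differed in their order of levels. miR-15a-5p had VST values of 13.33, 13.47 and 12.89 in ESCs, 12.90, 12.37 and 12.56 in MEFs, 11.68 and 11.14 in iPSCs, 11.73 and 11.76 in NT-ESCs, and 11.67 and 11.73 in NT-iPSCs. All 6 reprogrammed libraries were thus below all libraries of ESCs and MEFs, and the ranges of ESCs and MEFs overlapped. miR-15b-5p had VST values of 12.81, 13.05 and 12.94 in ESCs, 12.91 and 12.64 in iPSCs, 12.58 and 12.68 in NT-ESCs, 11.53, 11.50 and 11.86 in MEFs, and 12.50 and 12.48 in NT-iPSCs. Here the MEFs were the lowest cell type and did not overlap with any other, while neighbouring types among the pluripotent ones did not differ by limma (adjusted p from 0.37 to 0.66).

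miR-16-5p, encoded beside both, was the most abundant member in ESCs. Its VST was 15.49, 15.86 and 15.76 in ESCs, 15.13, 14.54 and 14.61 in MEFs, 14.75 and 14.21 in iPSCs, 14.72 and 14.80 in NT-ESCs, and 14.17 and 14.35 in NT-iPSCs. The ESC libraries were above all the others, and below them NT-ESCs, MEFs, iPSCs and NT-iPSCs followed with no difference between neighbours in that order (adjusted p from 0.24 to 0.99).

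miR-195-5p and miR-497-5p, encoded together on chromosome 11, were scarce in MEFs. miR-195-5p had 38, 19 and 25 reads in MEFs, 417, 611 and 524 in ESCs, and between 598 and 841 in the reprogrammed libraries. On the VST scale this was 7.77, 6.69 and 7.12 in MEFs against 10.99, 11.37 and 11.26 in ESCs, with a median of 11.19 (10.92 to 11.56) over the 6 reprogrammed libraries. miR-497-5p had 18, 7 and 13 reads in MEFs, 211, 216 and 169 in ESCs and 670 to 960 in reprogrammed cells. Its VST was 6.71, 5.32 and 6.20 in MEFs, 10.01, 9.87 and 9.63 in ESCs, and 11.31 (11.27 to 11.57) at the median of the reprogrammed libraries. The 3 levels of miR-497-5p did not overlap, whereas the miR-195-5p levels of ESCs and reprogrammed cells did.

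miR-322-5p, the mouse counterpart of human miR-424, and miR-503-5p, its neighbour on the X chromosome, took opposite places in the reprogrammed cells. miR-322-5p had VST values of 14.95, 15.36 and 15.12 in MEFs, 13.79, 13.85 and 13.82 in ESCs, 10.68 and 10.58 in iPSCs, 9.92 and 10.56 in NT-ESCs, and 10.55 and 10.85 in NT-iPSCs. The reprogrammed libraries held 323 to 516 reads of it, against 2899 to 3405 in ESCs and 5597 to 7975 in MEFs. miR-503-5p had VST values of 14.65, 14.34 and 14.38 in MEFs, 13.18, 13.12 and 13.28 in ESCs, 14.65 and 15.18 in iPSCs, 14.28 and 14.43 in NT-ESCs, and 14.69 and 14.78 in NT-iPSCs. Its ESC libraries were below all the others, and MEFs lay among the reprogrammed types.

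To determine how the somatic cells differed from the pluripotent line, MEFs were compared with ESCs by limma, with Benjamini-Hochberg adjusted p-values over the 732 miRNAs that had at least 10 reads in at least 2 libraries. All 7 members passed the threshold of 0.05, 2 higher and 5 lower in MEFs, against 79% of all miRNAs tested (39.1% higher and 39.9% lower). The libraries of both cell types did not overlap for 6 of the 7 members, the exception being miR-15a-5p, and for 79.9% of all tested miRNAs. The 5 lower members were those of the autosomal pairs. miR-195-5p was 16.2-fold lower in MEFs (difference in VST -4.01 ± 0.24 SE, adjusted p = 4.7e-08) and miR-497-5p 13.5-fold lower (-3.76 ± 0.29, adjusted p = 3.7e-07). miR-15b-5p, miR-16-5p and miR-15a-5p were lower by less, with differences of -1.30, -0.94 and -0.62 (adjusted p = 5.9e-06, 0.00091 and 0.015). The call on miR-15a-5p was lost without MEF replicate 14 (adjusted p = 0.060), without ESC replicate 3 (adjusted p = 0.067) and with upper quartile scaling (adjusted p = 0.12). The X-linked members rose in MEFs relative to ESCs, miR-322-5p by 1.33 ± 0.18 (2.51-fold, adjusted p = 3.5e-05) and miR-503-5p by 1.27 ± 0.15 (2.40-fold, adjusted p = 1.5e-05). Scaled by total miRNA reads, which moved the median of all tested miRNAs by -0.80 in this comparison, miR-322-5p was higher by 0.44 and was no longer called (adjusted p = 0.068), and miR-503-5p was higher by 0.37 (adjusted p = 0.019). The median difference of the members was -0.94, and that of all tested miRNAs was 0.00.

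Comparing each reprogrammed type with ESCs asked whether the members returned to the level of the pluripotent line. In the mean of the 3 reprogrammed types, 2 members were higher and 4 lower than in ESCs and 1 was not called, while 82% of all tested miRNAs were called (44% higher and 38% lower). The libraries did not overlap for 5 members, all but miR-15b-5p and miR-195-5p, and for 71% of all tested miRNAs. miR-322-5p fell the furthest of the members, by 3.30 ± 0.15 (9.82-fold lower, adjusted p = 2.6e-09). Its neighbour miR-503-5p rose by 1.48 ± 0.13 (2.78-fold, adjusted p = 8.5e-07). miR-497-5p rose by 1.54 ± 0.26 (2.90-fold, adjusted p = 0.00017), whereas for miR-195-5p the difference was 0.00 with a 95% interval from -0.46 to 0.47 (adjusted p = 0.99). miR-15a-5p and miR-16-5p fell by 1.61 and 1.20 (adjusted p = 4.4e-06 and 4.0e-05). miR-15b-5p was lower by 0.30 ± 0.12 (adjusted p = 0.038), a call that was lost when any 1 of 7 of the libraries was left out (adjusted p from 0.051 to 0.15), with upper quartile scaling (adjusted p = 0.82) and with total-read scaling (adjusted p = 0.23).

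Each reprogrammed type was also set against the ESC libraries, which these comparisons share. For miR-322-5p the differences were -3.19 (iPSCs), -3.58 (NT-ESCs) and -3.12 (NT-iPSCs), and for miR-503-5p they were 1.72, 1.16 and 1.54. For miR-497-5p they were 1.60, 1.45 and 1.56, and for miR-195-5p -0.24, -0.02 and 0.27. miR-15a-5p differed by -1.82, -1.49 and -1.53 in the same order, miR-16-5p by -1.22, -0.94 and -1.44, and miR-15b-5p by -0.16, -0.31 and -0.45. In all, 5 members were called in iPSCs (background 75.8%), 5 in NT-ESCs (75.8%) and 6 in NT-iPSCs (77.6%), the additional call being miR-15b-5p at -0.45 (adjusted p = 0.023). That call was lost without ESC replicate 3 (adjusted p = 0.074), without either NT-iPSC library (adjusted p = 0.068 and 0.082) and with upper quartile scaling (adjusted p = 0.37).

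Compared with MEFs, the cells from which they were made, the reprogrammed types had 3 members higher and 2 lower in their mean, against 88.9% of all tested miRNAs called (48.5% higher and 40.4% lower). The libraries did not overlap for 5 members, all but miR-16-5p and miR-503-5p, and for 80.6% of all tested miRNAs. miR-497-5p was higher by 5.30 ± 0.26 (39.3-fold, adjusted p = 2.2e-09), miR-195-5p by 4.02 ± 0.21 (16.2-fold, adjusted p = 4.5e-09) and miR-15b-5p by 0.999 ± 0.122 (2.00-fold, adjusted p = 1.1e-05). miR-322-5p fell by 4.62 ± 0.15 (24.6-fold lower, adjusted p = 8.5e-11). miR-15a-5p was lower by 0.99 (adjusted p = 0.00021), whereas miR-16-5p (-0.26, adjusted p = 0.16) and miR-503-5p (0.21, adjusted p = 0.15) were not called. These 3 values depended on the scaling, the first 2 of them in direction and miR-503-5p in its call. With total miRNA reads, where the median of all tested miRNAs moved by 0.98, miR-15a-5p was at 0.01 (adjusted p = 0.94), miR-16-5p was higher by 0.75 (adjusted p = 0.0011) and miR-503-5p was higher by 1.22 (adjusted p = 5.3e-07). With TMM-type factors, miR-503-5p was higher by 0.52 (adjusted p = 0.0057), as it was by 0.30 without iPSC replicate 62 (adjusted p = 0.027).

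For the single types against the shared MEF libraries, miR-322-5p differed by -4.51 (iPSCs), -4.91 (NT-ESCs) and -4.45 (NT-iPSCs). For miR-497-5p the differences were 5.36, 5.21 and 5.32. The members called were 6 in iPSCs (background 87.8%), 5 in NT-ESCs (84%) and 6 in NT-iPSCs (83.1%). The sixth member was miR-503-5p in iPSCs, higher by 0.46 (adjusted p = 0.026), and miR-16-5p in NT-iPSCs, lower by 0.50 (adjusted p = 0.0496). The miR-503-5p call was lost without iPSC replicate 63 (adjusted p = 0.32), without MEF replicate 14 (0.074) or 15 (0.069), and in a fit of the groups compared alone (0.089). The miR-16-5p call was lost without MEF replicate 13 (adjusted p = 0.15), without either NT-iPSC library (0.21 and 0.081), with no filter (0.057), in a fit of the groups compared alone (0.085) and with TMM-type factors (0.35). With total-read scaling it became a difference of 0.27 (adjusted p = 0.26).

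**Figure D2:**
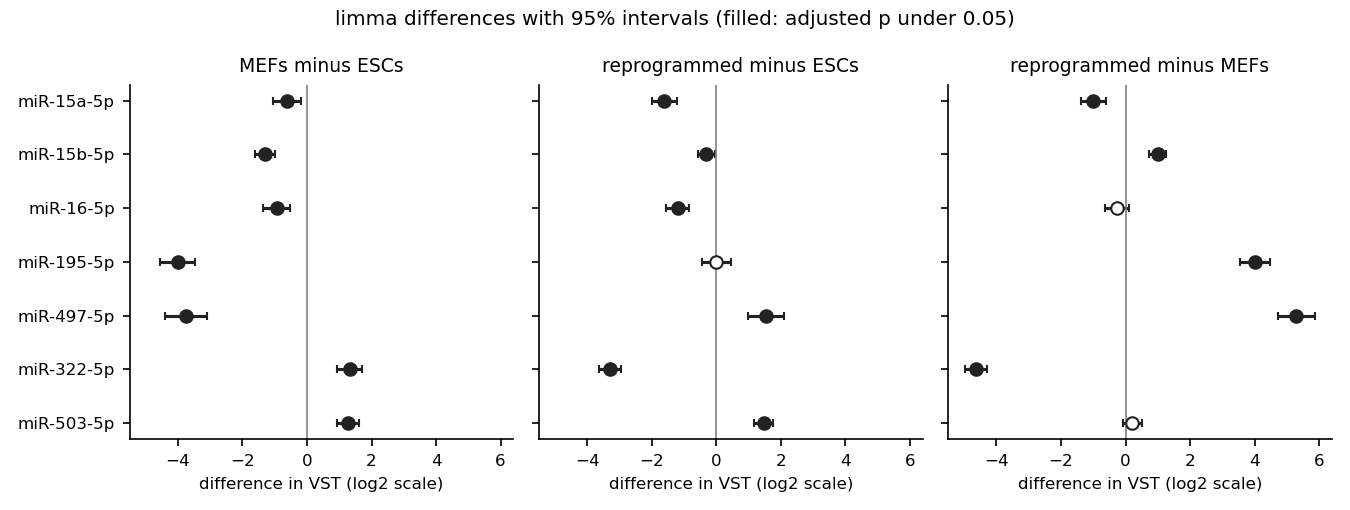
Difference in VST (log2 scale) of each member in 3 comparisons, with its 95% interval from limma; filled points have an adjusted p under 0.05. miR-322-5p is the only member above 0 in the left panel and below 0 in the middle one.

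The ways of reprogramming were compared last. By limma, 1 member was called between NT-ESCs and iPSCs, where 25.7% of all tested miRNAs were called: miR-503-5p was lower in NT-ESCs by 0.56 ± 0.19 (adjusted p = 0.049). This call was lost without iPSC replicate 63 (difference -0.30, adjusted p = 0.29) and without either NT-ESC library (adjusted p = 0.21 and 0.11), with TMM-type factors (0.082), with no filter (0.056) and in a fit of the groups compared alone (0.15). In the same comparison 9 of the 10 fibroblast and mesenchymal markers were higher in NT-ESCs (median difference of the list 1.80), and between NT-iPSCs and iPSCs all 10 were higher in NT-iPSCs (median 2.01); their part in the family's values was not tested. No member was called by limma between NT-iPSCs and iPSCs (background 26.5%) or between NT-iPSCs and NT-ESCs (background 12.8%), with 0 members at an unadjusted p under 0.05 and 0 called by voom in both. In the first of these, scaling by total reads called 3 members lower in NT-iPSCs, miR-15b-5p, miR-16-5p and miR-503-5p, by 0.83, 0.76 and 0.72. The 95% intervals leave room for differences, for miR-322-5p from -0.02 to 0.94 and for miR-16-5p from -1.02 to 0.02 between NT-iPSCs and NT-ESCs.

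The reads of the members were also summed, miR-503-5p included although its seed differs by A8G. miR-503-5p gave 31.9 to 52.1% of the family reads in the reprogrammed libraries, 21.9 to 24.7% in MEFs and 8.34 to 10.3% in ESCs. A sum without it was not made. The 7 members together gave a share of all miRNA reads of 0.217% ± 0.010 (MEFs, SD, n = 3), 0.409% ± 0.025 (ESCs, n = 3) and 0.305% ± 0.074 (reprogrammed libraries, n = 6). Per library the share was 0.214, 0.229 and 0.210% in MEFs, 0.380, 0.427 and 0.419% in ESCs, 0.420 and 0.369% in iPSCs, 0.275 and 0.284% in NT-ESCs, and 0.230 and 0.253% in NT-iPSCs. All ESC libraries were above all MEF libraries, a difference of -0.191 percentage points for MEFs with the smallest p that 3 against 3 libraries allow (p = 0.1, exact two-sided permutation test). The difference was -0.119 points with the 10 most abundant other miRNAs left out of the denominator and -0.0310 points without miR-16-5p, the most abundant member over all libraries. The reprogrammed libraries were lower than ESCs by 0.104 points (mean difference -0.104, p = 0.083, exact permutation test over 84 arrangements) and higher than MEFs by 0.0877 points (p = 0.071), neither of which passed 0.05. An iPSC library (0.420%) lay within the range of ESCs. Without iPSC replicate 62 the difference from ESCs was -0.127 points with p = 0.018 in the exact permutation test. The direction of reprogrammed cells against MEFs turned with the other denominator, and that against ESCs turned without miR-16-5p. With the 10 most abundant other miRNAs left out of the denominator, reprogrammed cells were lower than ESCs by 0.179 points (difference -0.179, p = 0.012, exact permutation test) and were at -0.0598 points relative to MEFs (p = 0.20, exact permutation test). Without miR-16-5p they were at 0.0104 points relative to ESCs (p = 0.86, exact permutation test) and at 0.0414 points relative to MEFs (p = 0.17, exact permutation test).

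Scaled by the size factors behind the deposited values, as in the limma comparisons, the family sums were ordered differently. The normalized family reads were 22407 to 25399 in MEFs (mean 23642) and 21920 to 25978 in ESCs (mean 23961), ranges that overlapped, and 14845 to 17330 in the 6 reprogrammed libraries (mean 16133 ± 1016, SD), all of them below every MEF and ESC library. Relative to MEFs the reprogrammed cells were thus higher as a share of miRNA reads and lower in normalized reads; the normalized sums were not tested. The 8 miRNAs of the ES cell cycle seed family (miR-291, miR-294, miR-295 and miR-302) took 3.72 to 4.87% of the reads in ESCs, 3.41 to 5.21% in reprogrammed cells and at most 0.0005% in MEFs, where 4 of them were at 0 in every library.

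The make-up of the family, which needs no scaling between libraries, differed between the cell types. In ESCs miR-16-5p gave 54.4% ± 2.8 of the family reads (SD, n = 3), followed by miR-322-5p with 14.7%. In MEFs miR-322-5p was in front with 37.8% ± 7.0, followed by miR-16-5p with 28.9% and miR-503-5p with 23.2%. In reprogrammed cells miR-503-5p gave 40.0% ± 7.7 (n = 6) and miR-16-5p 35.7% ± 7.0, while miR-322-5p was at 2.25% ± 0.41. The order of the first 2 varied: miR-16-5p led in both NT-ESC libraries (mean 43.1% against 32.4%) and in iPSC replicate 62 (39.2% against 36.5%), and miR-503-5p led in both NT-iPSC libraries (mean 43.2% against 31.1%) and in iPSC replicate 63 (52.1% against 26.7%). miR-497-5p and miR-195-5p gave 4.03% and 3.65% of the family reads there, against 0.0712% and 0.153% in MEFs.

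**Figure D3:**
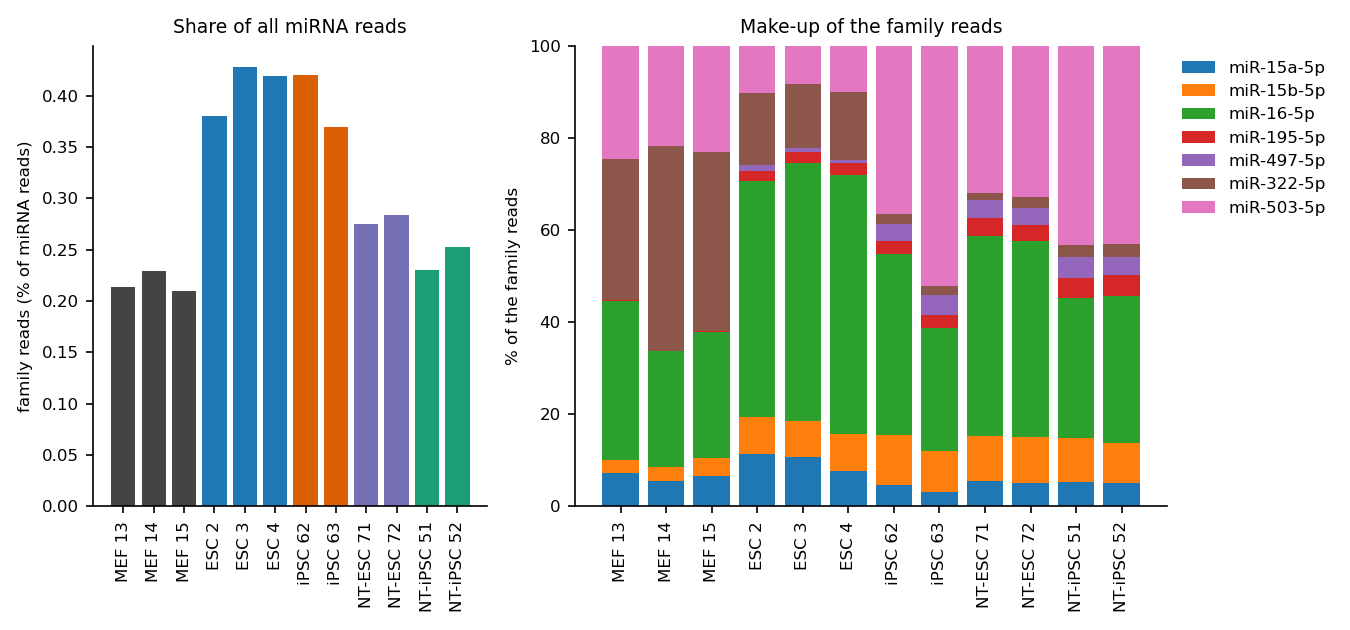
Left, reads of the 7 members as a percentage of all miRNA reads in each library; right, the percentage of the family reads given by each member. miR-322-5p makes up 30.4 to 44.3% of the family reads in MEFs and 1.55 to 2.80% in the reprogrammed libraries.

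Ratios of 2 members within a library need no scaling between libraries. The log2 ratio of reads of miR-322-5p to those of miR-503-5p, its neighbour on chromosome X, was 0.30, 1.02 and 0.74 in MEFs and 0.60, 0.73 and 0.55 in ESCs. In the reprogrammed libraries it was -3.97 and -4.60 (iPSCs), -4.36 and -3.87 (NT-ESCs), and -4.14 and -3.94 (NT-iPSCs). Thus miR-322-5p was read more often than miR-503-5p in all 6 libraries of MEFs and ESCs and at most 0.0682 times as often in all reprogrammed libraries. The difference from ESCs was -4.77 (p = 0.012, exact two-sided permutation test, the smallest that 84 arrangements allow). The log2 ratio of miR-15a-5p to miR-15b-5p, which lie on different chromosomes (14 and 3), was 0.98 ± 0.34 in MEFs (SD, n = 3), 0.29 ± 0.31 in ESCs (n = 3) and -1.01 ± 0.29 in reprogrammed cells (n = 6), a difference from ESCs of -1.31 (p = 0.012, exact permutation test, again the smallest possible). These permutations treat the 6 reprogrammed libraries as exchangeable although they come from 3 lines. The libraries of reprogrammed cells and ESCs did not overlap for 71% of all tested miRNAs either, and ratios of other pairs were not tested. Without a test, the log2 ratio of miR-497-5p to its neighbour miR-195-5p was -1.15 in MEFs, -1.37 in ESCs and 0.16 in reprogrammed cells.

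The 3p arms of the same hairpins were set beside the 5p arms. Arm ratios of reprogrammed cells and ESCs did not overlap for 75.4% of all hairpins. A 3p arm therefore cannot show whether a whole hairpin had moved. Between ESCs and reprogrammed cells, those of miR-322 and miR-503 had not moved with their 5p partners, and neither had other 3p arms of the family given below. The hairpins of miR-322 and miR-503 are printed from RefSeq (GRCm38.p6) with the 5p and then the 3p mature sequence in capitals.
Mir322: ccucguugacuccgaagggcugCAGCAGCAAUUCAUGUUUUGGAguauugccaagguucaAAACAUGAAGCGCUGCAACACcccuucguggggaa
Mir503: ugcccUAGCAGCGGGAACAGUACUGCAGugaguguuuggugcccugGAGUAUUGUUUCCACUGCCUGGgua

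miR-322-3p had 379, 534 and 611 reads in ESCs, 3496, 2283 and 3294 in MEFs, and between 3212 and 4504 in the reprogrammed libraries. Reprogrammed cells had more of it than ESCs, by 2.44 ± 0.18 (adjusted p = 1.9e-07) whereas miR-322-5p was lower by 3.30. The 5p arm gave 61.6 to 77.7% of the reads of this hairpin in MEFs and 83.5 to 88.4% in ESCs, but 8.76 to 12.4% in the 6 reprogrammed libraries, so that the dominant arm was the other one in every reprogrammed library. miR-503-3p moved the opposite way, with 194, 175 and 149 reads in ESCs, 889, 792 and 862 in MEFs, and 6 to 14 in the reprogrammed libraries (-4.43 ± 0.21 against ESCs, adjusted p = 2.9e-09). The 5p arm of miR-503 gave 99.8 to 99.9% of the hairpin's reads in reprogrammed cells, 90.8 to 93.4% in ESCs and 82.0 to 83.6% in MEFs.

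**Figure D4:**
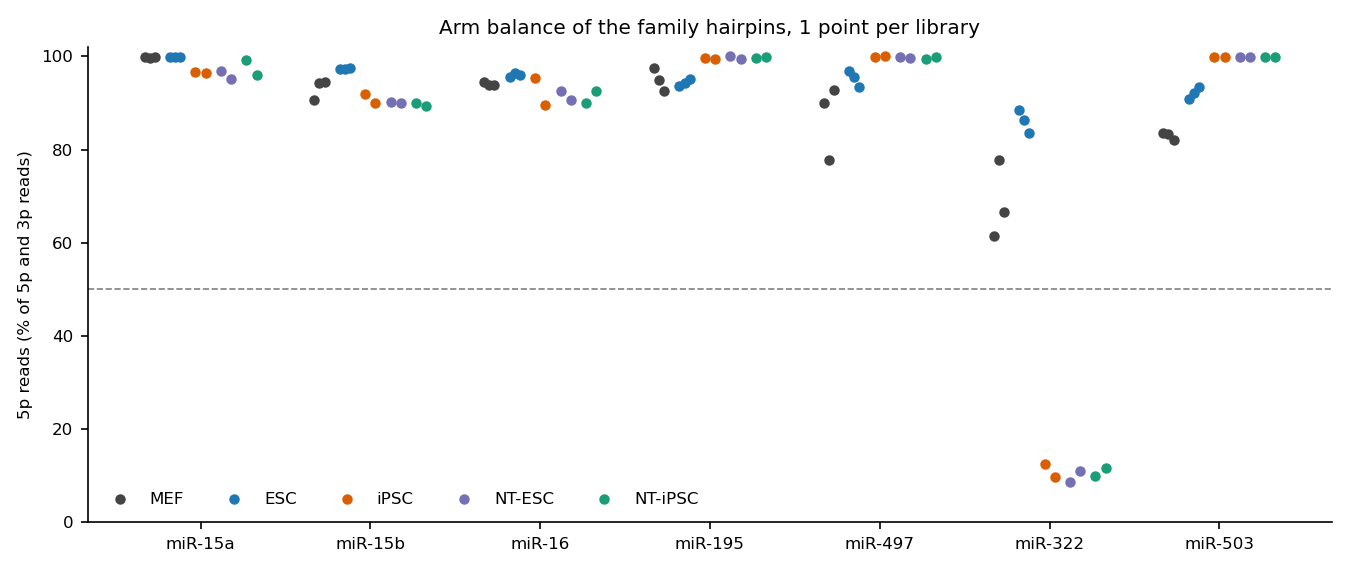
Percentage of the reads of each family hairpin that came from its 5p arm, 1 point per library, with a dashed line at 50%. The miR-322 hairpin lies at 61.6 to 88.4% in MEFs and ESCs and at 8.76 to 12.4% in the reprogrammed cells, and the other hairpins stay above 50% in all 12 libraries.

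Of the 8 opposite arms of the family, 3 were higher and 3 lower in reprogrammed cells when set against ESCs, and 2 were not called, so that 6 of 8 were called beside the 82% of all tested miRNAs. miR-15b-3p rose by 1.70 (adjusted p = 5.6e-06) although miR-15b-5p did not. miR-15a-3p rose by 2.98 while miR-15a-5p fell by 1.61. It had 1 to 4 reads in ESCs and 7 to 46 in the reprogrammed libraries. miR-497-3p fell by 2.59 (adjusted p = 0.0019 by limma) while miR-497-5p rose by 1.54. It had 7 to 12 reads in ESCs and 0 to 5 in the reprogrammed libraries. miR-195-3p had 27 to 37 reads in ESCs and 0 to 3 in the reprogrammed libraries. For the miR-16 hairpins, miR-16-1-3p (-0.18, adjusted p = 0.33) and miR-16-2-3p (0.15, adjusted p = 0.70) were not called. The 3p arms differ between the 2 miR-16 loci, and the log2 ratio of miR-16-1-3p to miR-16-2-3p was 2.63 ± 0.55 in MEFs, 2.71 ± 0.41 in ESCs (SD, n = 3 each) and 2.38 ± 0.30 in reprogrammed cells (n = 6).

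The arm changes of the family were set beside those of all 264 hairpins. Between reprogrammed cells and ESCs the other arm was dominant in every library for 44 hairpins (16.7%), 1 of them miR-322, and between reprogrammed cells and MEFs for 33 (12.5%), again with miR-322. Between MEFs and ESCs it was so for 3 hairpins (1.14%), none of them of this family. The median absolute shift of the log2 ratio of 5p to 3p reads between reprogrammed cells and ESCs was 2.66 over all hairpins, and it was 0.70 between MEFs and ESCs. By size, the shift of miR-503 (5.95) ranked 31st and that of miR-322 (-5.73) 38th of the 264, while miR-15b (158th) and miR-16 (207th) moved less than the median. The shifts of miR-15a (-4.62), miR-195 (4.36) and miR-497 (4.23) are given without a rank, because their 3p arms had 1 to 4 reads in ESCs or 0 to 5 reads in reprogrammed cells and the 0.5 read added to each arm bears on their size. The arm ratios of reprogrammed cells and ESCs did not overlap for any of the 7 family hairpins, beside 75.4% of all hairpins. Those of reprogrammed cells and MEFs did not overlap for 5 of the 7, beside 71.2%. Between MEFs and ESCs they did not overlap for 5 of the 7, beside 43.6%, all with the lower 5p share in MEFs and with shifts of up to -1.77 for miR-497, whose 3p arm had 1 or 2 reads in MEFs.

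**Figure D5:**
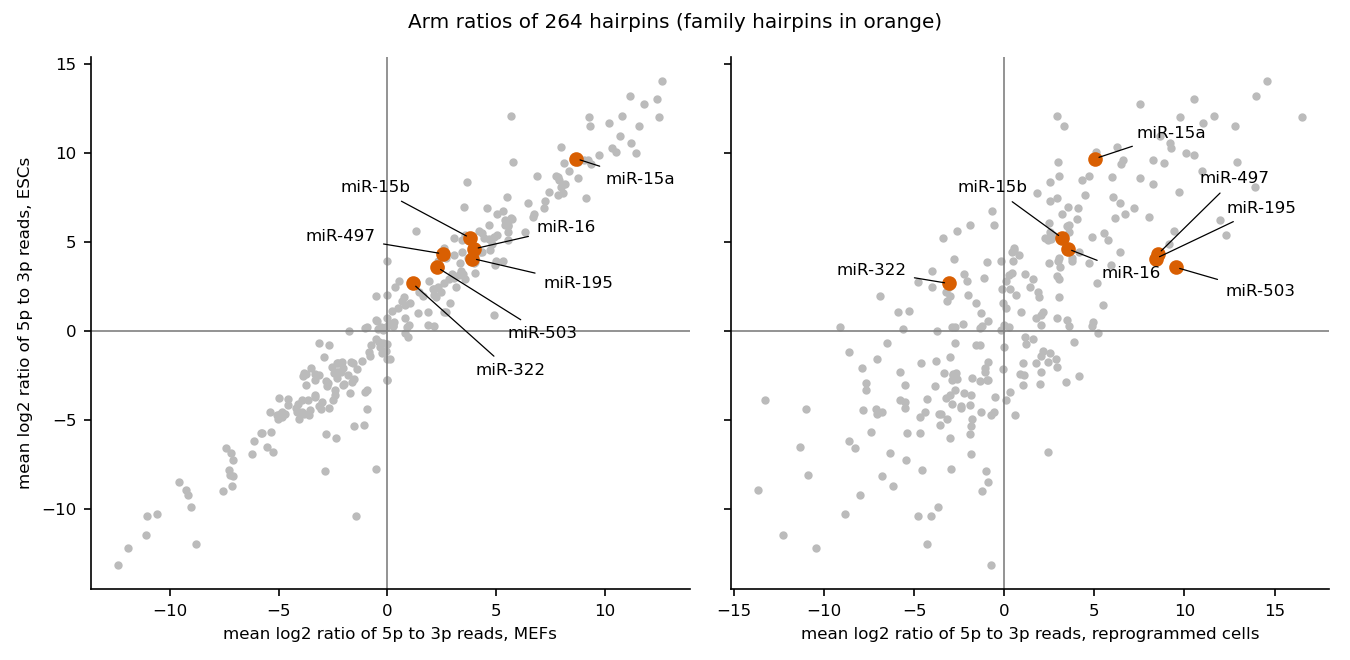
Mean log2 ratio of 5p to 3p reads of 264 hairpins in ESCs (vertical) against MEFs (left) and reprogrammed cells (right), 0.5 read added to each arm; family hairpins are orange. The points lie close to a line for MEFs (r = 0.964) and spread widely for reprogrammed cells (r = 0.765), with miR-322 left of 0 in the right panel only.

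The other miRNAs encoded near miR-322 and miR-503 on the X chromosome, those of the miR-351, miR-542 and miR-450 hairpins, were taken as a list of 9, of which 8 were tested. In MEFs 5 were higher and 1 lower than in ESCs, where 79% of all tested miRNAs were called (39.1% higher and 39.9% lower). In reprogrammed cells 2 were higher, 3 lower and 3 not called against ESCs, where the share of all tested miRNAs called was 82%. The median difference of the list in the latter comparison was -0.32, beside 0.24 for all tested miRNAs. miR-542-3p, read 3529 to 5433 times in ESCs and 4364 to 4614 times in MEFs, had 436 to 692 reads in the reprogrammed libraries (-3.49 ± 0.16 against ESCs, adjusted p = 2.7e-09). miR-450b-5p was lower by 3.43 (adjusted p = 3.7e-08) and miR-351-5p by 1.42 (adjusted p = 3.0e-06), whereas miR-450b-3p was higher by 1.54 (adjusted p = 4.7e-06) and miR-450a-5p by 0.40 (adjusted p = 0.024). Within the miR-450b hairpin, too, the arms moved in opposite directions. Not called by limma were miR-542-5p (-0.28, adjusted p = 0.21), miR-351-3p (-0.25, adjusted p = 0.15) and miR-450a-1-3p (-0.35, adjusted p = 0.11).

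To compare the shapes of the profiles, the mean VST of each cell type was centred on the mean of the 5, and profiles were compared by their root mean square (RMS) difference on the log2 scale. Among the members, miR-15a-5p and miR-16-5p were the most alike (RMS difference 0.35), followed by miR-15b-5p and miR-16-5p (0.56) and by miR-195-5p and miR-497-5p (0.72). miR-322-5p and miR-503-5p, although neighbours, were 2.35 apart, and the farthest pair was miR-322-5p and miR-497-5p (3.96). Over all tested miRNAs, the profiles nearest to a member were those of miR-872-3p and miR-3068-3p for miR-15a-5p (0.084 and 0.14), miR-690 and miR-653-5p for miR-15b-5p (0.15 and 0.21), and miR-3096-3p and miR-361-5p for miR-16-5p (0.094 and 0.11). miR-195-5p was nearest to miR-672-3p and miR-700-5p (0.24 and 0.32), and miR-497-5p to miR-883b-3p and miR-200a-3p (0.27 and 0.32). miR-322-5p was nearest to miR-3108-5p and miR-679-3p (0.24 and 0.26), and miR-503-5p to miR-337-5p and miR-409-5p (0.076 and 0.10). With 5 cell types and 732 miRNAs to choose from, these likenesses are descriptions, and the median RMS difference from a member to all tested miRNAs ran from 1.55 to 2.41.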

How the data were processed

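Per the labels and methods, small RNA of 18-30 nt was sequenced in 12 libraries; the authors removed adaptors and low quality tags, counted miRNA reads and deposited log2-scale values from the variance stabilizing transformation of DESeq (build mm8 per the submitters' notes; version not given in the sources used here). Inverting the transformation gave whole reads within 0.05 read for 100.0% of 9458 nonzero values, used for depth, filters, shares and ratios. limma 3.58.1 (R 4.3.3) was fitted to the deposited log2 values of 732 miRNAs, with a mean for each cell type and a trend. Shares and ratios were compared by exact permutation (Python 3.11.15, numpy 2.4.6). Replicates differed beyond counting noise (chi-square per degree of freedom 46.4 to 350). The limma script was tested on simulated data. Alternatives were other scalings (upper quartile, TMM-type, total reads), log2 of normalized reads plus 1, voom, other filters, a fit of the compared groups alone, a difference of at least 1 required and each library left out; for shares, another denominator or miR-16-5p left out; for ratios, 0.5 read added. All members were named, with the lists of opposite arms, neighbours and ES cell cycle miRNAs and the 2 nearest profiles. Members and lists were chosen with earlier results of these data known; miR-195-5p meets the rule and was added to the members once the table was read.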

Additional observations from a re-analysis of the deposited data

How the results depend on the processing

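The members called stayed within 1.5 times the reported counts under all alternatives in 7 of the 12 comparisons. Requiring a difference of at least 1 left 3 members called in NT-ESCs, in NT-iPSCs and in the mean of reprogrammed types against MEFs. Between NT-ESCs and iPSCs the count of 1 became 0 with TMM-type factors, no filter, only the groups compared or a minimum difference of 1, became 2 with total-read scaling, and ran from 0 to 1 when a library was left out. Between NT-iPSCs and iPSCs it went from 0 to 3 with total-read scaling. Leaving out the 10 most abundant other miRNAs from the denominator, the family share differed by -0.179 points between reprogrammed cells and ESCs (p = 0.012, exact permutation test) and by -0.0598 points between reprogrammed cells and MEFs (p = 0.20, exact permutation test), the latter a reversal. Without miR-16-5p, the most abundant member, the first was reversed to 0.0104 points (p = 0.86, exact permutation test) and the second fell to 0.0414 points (p = 0.17, exact permutation test). When each library was left out, the first ran from -0.127 to -0.0886 points.

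For single members, 1080 of 1134 values under alternatives kept their direction and side of the threshold or were called in neither fit, 35 lost the call, 12 gained it and 7 were reversed. All 7 reversals came with total-read scaling against MEFs: miR-15a-5p to 0.11 in iPSCs, 0.081 in NT-ESCs and 0.015 in the mean, miR-16-5p to 1.03 in iPSCs, 0.27 in NT-iPSCs and 0.75 in the mean, and miR-503-5p to 0.85 in NT-ESCs. The cause was not tested. Total-read scaling moved the share of calls that were higher in MEFs than in ESCs from 49.5 to 29.6%, and in reprogrammed cells than in MEFs from 54.5 to 65.6%; with TMM-type factors the former was 38.9%. Between the reprogrammed types the share of calls in the higher direction went from 43.6-50.5% to 20.8-25.1% with total-read scaling, and for NT-iPSCs against NT-ESCs to 23.3% with TMM-type factors. No paired analysis was possible because the cell types share no replicate numbers. Depth limits the 3p arms with under 10 reads, and also miR-497-5p in MEFs, where it had 18, 7 and 13 reads.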
